A study of Mus musculus with 2 samples.

Results

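The cells described here are B cells of the lymph node that carried messenger RNA of both IgD and CD23, 931 of the 11269 lymph node cells kept by the quality limits (8.26%, exact 95% interval 7.76 to 8.79). A cell was taken when it held at least 3 unique molecular identifiers (UMIs, each tagging 1 captured transcript) of Cd79a plus Cd79b, at least 1 of Ighd and at least 1 of Fcer2a, which encodes CD23. It also had to hold 0 UMIs of Cd3d, Cd3e and Cd3g together, under 5 of the keratins Krt8 and Krt18, and under 5 of the high endothelial genes Glycam1, Chst4 and Fut7. Kept cells had over 200 detected genes and at most 5% of their UMIs in mitochondrial genes. No surface protein was measured, so IgD-positive and CD23-positive refer to RNA alone. The cells came from 1 library made of lymph nodes pooled from 6 C57BL/6J mice with EO771-HEVM3 tumours, and a paired library was made from the primary tumours of those animals. EO771 is a mouse mammary cancer line, and HEVM3 names a derivative taken through 3 rounds of selection for cells linked to high endothelial venules. The mice were female and 5 to 6 weeks old when obtained, and the labels name no gene deletion or drug. Cells were not assigned to mice, both tissues have 1 library, and no untreated lymph node was analysed here, so no comparison below carries a test.

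IgD and IgM are made from the same rearranged heavy chain transcript by alternative splicing, and a B cell that has not met its antigen carries both on its surface. CD23 is the low-affinity receptor for IgE and is a usual surface marker of the recirculating follicular B cell, which enters the lymph node through high endothelial venules and collects in follicles. Such a cell presents antigen to helper T cells on MHC class II molecules, and it gives up IgD and CD23 when it enters a germinal centre or becomes a plasma cell.

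The lymph node library held 122207852 UMIs in 11617 barcodes, and 11565 of them had over 200 detected genes. Its barcodes had a median of 2630 UMIs, and 47 barcodes occurred in both libraries, 2 of them among the 931 cells. In the primary tumour 1 of 9989 kept cells passed the same limits. That cell had 7257 UMIs, with 2 of Ighd, 1 of Fcer2a, 4 of Ighm and 76 of Cd74, so the primary tumour gave no population to set beside the lymph node.

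All limits other than those on Ighd and Fcer2a left 4479 B lineage cells, and the IgD-positive CD23-positive cells were 20.8% of them (19.61 to 22.004). The other B lineage cells were 2139 with Ighd but no Fcer2a UMI, 305 with Fcer2a but no Ighd UMI, and 1104 with neither. The IgD-positive CD23-positive cells had a median of 1968 UMIs (5th percentile 1357, highest 80691) and of 922 genes. The medians were 1821 UMIs in the IgD-positive CD23-negative cells, 1743 in the IgD-negative CD23-positive cells and 1796 in those with neither, so the cells chosen for 2 transcripts were also the more deeply read. CD4 T cells, 563 in this library, had a median of 2710 UMIs and serve as cells that should lack B cell transcripts. They were chosen for Cd3 and Cd4 UMIs and for no Cd8a, Cd8b1, Cd79a or Cd79b UMI. Contrasts with them are thus partly set by that choice.

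Most cells sat close to the limits that chose them, and these values describe the choice without supporting anything. Ighd stood at 1 UMI in 357 cells, at 2 in 262, at 3 in 134 and above that in 178. Fcer2a stood at 1 UMI in 672 cells, at 2 in 186, at 3 in 43 and above that in 30. The sum of Cd79a and Cd79b had a median of 9 UMIs, and 45 cells were at the lower limit of 3, with 28 otherwise matching cells just outside at 2. A single Cd3 UMI kept 22 cells out, and those cells had Ms4a1 at 576 counts per 1000000 UMIs (CPM) and Trbc2 at 322 CPM. Absence of Fcer2a was linked to depth: among the IgD-positive B cells the share with an Fcer2a UMI went from 20.04% (16.8 to 23.7) of the 544 shallowest to 38.3% (33.5 to 43.3) of the 402 deepest. When each cell was reduced to 1000 UMIs, the share was 16.7% in cells with 1 Ighd UMI and 18.1% in cells with 3 or more, against 13.4% (11.6 to 15.3) in B lineage cells with no Ighd UMI. The plot of gate genes and depth shows both.

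**Figure D1:**
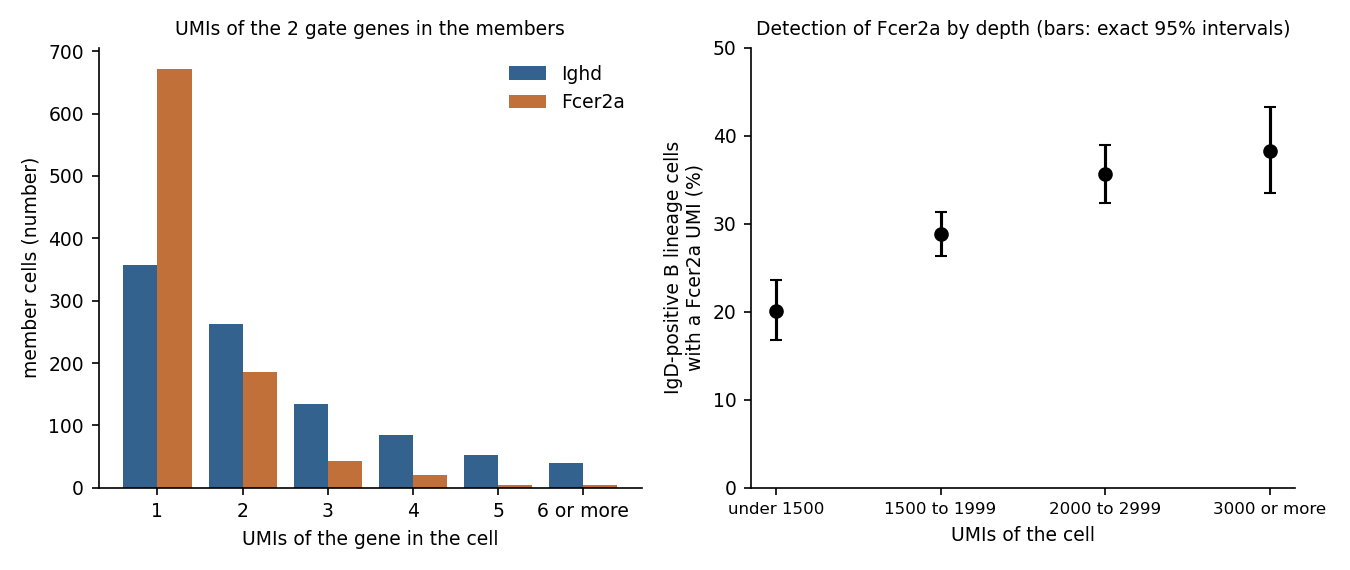
Left, number of IgD-positive CD23-positive cells (members) by their UMIs of Ighd and of Fcer2a, where 1 Fcer2a UMI is the commonest state, with 672 cells. Right, share of IgD-positive B lineage cells with an Fcer2a UMI (%) by the cell's UMIs, with exact 95% intervals, rising over the 4 depth classes to 38.3%.

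A small set of cells stood apart from the rest, by limits chosen after the data had been seen. Over 10000 UMIs, over 50 IgG UMIs, or over 50 UMIs of the neutrophil genes S100a8 plus S100a9 marked 11 of the 931 cells (1.18%), and they held 9.404% of the UMIs. Cells with large IgG counts numbered 5, with 254 to 1087 IgG UMIs and 1189 to 5514 Igkc UMIs each, and 2 cells had 1766 and 583 UMIs of S100a8 plus S100a9. The cell of 80691 UMIs had 1202 of Ctla2a, 13 of the endothelial gene Pecam1 and 3 of Igkc, another had 140 of Ctla2a, and 1 more had 399 of Cst3 and 6 of Igkc. The 11 cells held 97.7% of the IgG UMIs, 97.0% of those of Jchain, which joins antibody multimers in secreting cells, and 45.7% of those of Igkc. Levels are therefore given for all cells and, where they differ much, without the 11. Doublet scoring with Scrublet did not separate these cells: its own threshold marked 0 of 11269 cells, and 0 of the 11 lay among the 664 highest scores. Whether the cells that stood apart were doublets was not tested.

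B cell transcripts that neither choice used were far higher here than in CD4 T cells, whose choice had excluded Cd79a and Cd79b. Ms4a1, which encodes CD20, was at 761 CPM (726 to 798, counting error only) against 1.46 in CD4 T cells. After reduction to 1000 UMIs, 53.0% of the cells had an Ms4a1 UMI, against 0.124% of CD4 T cells. Ebf1, a transcription factor that sets B cell identity, was at 1195 CPM against 1.46, and in 70.1% of cells. T cell receptor constant transcripts (Trac, Trbc1, Trbc2) were found in 42 cells (4.51%), and in 98.4% of CD4 T cells, and only 4 of the 42 had more than 1 such UMI.

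Transcripts listed for other cell types differed in level. The choice had put Cd3d, Cd3e and Cd3g at 0, and the 9 other genes of the T cell list summed to 48.4 CPM, against 3559 in CD4 T cells, and the natural killer list to 5.67. The neutrophil list summed to 1067 CPM with all cells and 0.962 without the 11. Of 8 stromal genes, 6 were at 0 (Ccl21a, Ccl19, Pdpn, Pdgfrb, Col1a1 and Col1a2) and the list summed to 3.92 CPM. The choice limited Krt8 and Krt18, and the 5 other epithelial genes of the cancer list summed to 69.7 CPM, between the 55.6 of CD4 T cells and the 74.8 of IgD-positive CD23-negative cells. The plasmacytoid dendritic cell list, which holds Tcf4 and Bst2, summed to 341 CPM (231 in CD4 T cells) and the endothelial list to 105 (158 in CD4 T cells). Without the cells that stood apart in both groups, they were 315 against 122 and 89.97 against 80.6. The macrophage list came to 656 CPM, and 688 without the 11, most of it Apoe, a lipid carrier that was at 596 CPM here, 733 in IgD-positive CD23-negative cells, 870 in B lineage cells with neither transcript and 46.9 in CD4 T cells.

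Among heavy chain transcripts those of the unswitched classes led. Ighm was at 2148 CPM (2089 to 2209) and was found in 901 of the 931 cells, with a median of 4 UMIs a cell. Ighm exceeded Ighd in 691 cells (74.2%), equalled it in 115 and lay below it in 125, and the pooled counts gave 2.27 Ighm UMIs per Ighd UMI. Over the IgD-positive CD23-negative cells that ratio was 2.12, and without the cells that stood apart the pair was 2.24 and 2.11. Without the 11 cells, Ighg1 was at 15.4 CPM, Ighg2b at 12.03 and Ighg2c at 6.25, down from 653, 436 and 312 with them. Ighe had 0 UMIs. Ighd lies at chr12:113406604-113416324 and Ighm at chr12:113418558-113422730, both on the minus strand of GRCm38, and Fcer2a at chr8:3681737-3694175, also on the minus strand.

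Kappa was the main light chain, and many cells held a few transcripts of both kinds. Igkc was at 12988 CPM, or 7780 without the 11 cells, and was found in 903 cells with a median of 15 UMIs. The lambda constant transcripts together had a median of 1 UMI and were found in 641 cells, with Iglc2 at 582 CPM, Iglc1 at 228 and Iglc3 at 208. The lambda copies are close in sequence, so their split is uncertain. Both chains were detected in 615 cells (66.1%), kappa alone in 288, lambda alone in 26 and neither in 2. Of the 877 cells with at least 5 light chain UMIs, 535 had at most 10% lambda, 300 had 10 to 50%, 27 had 50 to 90% and 15 had more than 90%. Lambda was thus the larger part in 4.79% (3.47 to 6.42) of cells, with 5.02% in IgD-positive CD23-negative cells, 5.47% in IgD-negative CD23-positive cells and 4.27% in those with neither, all inside the interval. In CD4 T cells 461 of 563 had no light chain UMI and 1 had both kinds. Those cells were chosen without Cd79a or Cd79b UMIs and mostly lack light chain UMIs. They therefore cannot measure stray lambda UMIs beside kappa. The source of such lambda UMIs in the B cells was not tested.

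**Figure D2:**
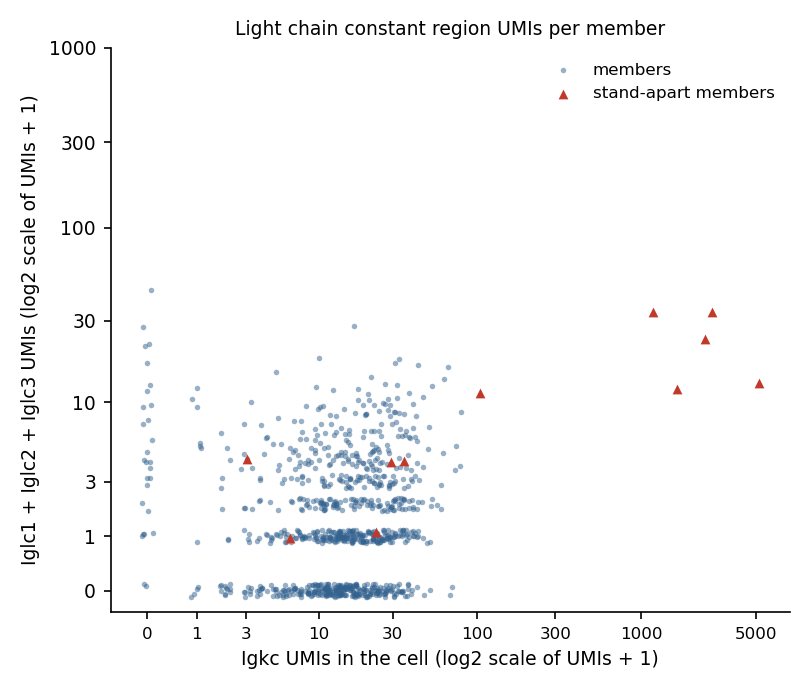
Kappa (Igkc, horizontal) against lambda (Iglc1, Iglc2 and Iglc3 summed, vertical) UMIs in each IgD-positive CD23-positive cell, on log2 scales of UMIs + 1 with points jittered; triangles are the 11 cells that stood apart. The 5 triangles at far right are the IgG cells with 1189 to 5514 Igkc UMIs, and the column at left holds the cells with no Igkc UMI.

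Variable region genes were spread thinly, and 3′ reads seldom reach them. An Ighv gene was read in 146 of 920 cells outside the 11 (15.9%), over 60 of the 183 Ighv genes listed, and no single gene was found in more than 7 cells. Igkv genes were read in 78 cells (8.48%) over 38 of 160 genes, and Iglv genes in 7. Most cells thus had no variable gene read.

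Genes of each step of receptor signalling were detected. Cd79a and Cd79b, which carry the signal and were part of the choice, were at 2928 and 999 CPM. The kinases followed, with Lyn at 353 CPM, Syk at 252 and Btk at 122, and the adaptor Blnk at 169. Of the coreceptor, Cr2 (CD21, a complement receptor) was at 78.9 CPM (87.1 without the 11 cells) and Cd81 at 127. Receptors that restrain signalling were also detected: Cd72 at 166 CPM, Cd22 at 146, Siglecg at 117 and the phosphatase Ptpn6 at 119. Btk had 0 UMIs in CD4 T cells.

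The transcription factor list was led by Ebf1 and then Mef2c at 1020 CPM, Foxp1 at 770, Ets1 at 637 and Klf2, a factor of quiescent recirculating lymphocytes, at 577. Pax5, the commitment factor of the lineage, was at 260 CPM, Irf8 at 207, Bach2 at 200 and Pou2af1 at 161. Prdm1, which directs plasma cell formation, was at 7.41 CPM. The survival receptor Tnfrsf13c, which binds BAFF, was at 137 CPM and had 0 UMIs in CD4 T cells, and the IgM receptor gene Fcmr was at 547 CPM.

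Antigen presentation took a large part of the transcripts. Cd74, the invariant chain that guides MHC class II molecules, was the highest gene apart from ribosomal and mitochondrial ones, at 15463 CPM (15302 to 15625), with a median of 34 UMIs and a range of 5 to 218 in the 931 cells. H2-Ab1 was at 5338 CPM, H2-Aa at 4933 and H2-Eb1 at 3916, and H2-Aa was found in 930 cells. Together the 11 genes of the class II list took 3.18% of UMIs, against 0.0461% in CD4 T cells. The peptide loading genes were lower, with H2-DMa at 506 CPM, H2-Ob at 453, H2-DMb2 at 353, H2-Oa at 247 and H2-DMb1 at 156. Ciita, the coactivator that switches on class II genes, was at 78.5 CPM (67.4 to 90.8), and at 46.6 in IgD-positive CD23-negative cells. The class I genes H2-K1, H2-D1 and B2m were at 1350, 1414 and 1229 CPM, and H2-K1 was at 2276 in CD4 T cells.

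Class II promoters are known to carry an inverted CCAAT box (the Y box), so the 250 bases before the start of these genes are of use beside their levels. The pentamer CCAAT, read as CCAAT or ATTGG, was found before 7 of the 8 class II list genes with a RefSeq promoter (H2-Aa, H2-DMa, H2-DMb1, H2-DMb2, H2-Eb1, H2-Oa and H2-Ob, but not Ctss) and in 33.8% of all 32851 RefSeq promoters. A pair is shown from GRCm38.p6, written 5′ to 3′ on the gene's strand with the matches in capitals, chr17:34287824-34288073 (minus strand) for H2-Aa and chr17:34305617-34305866 (plus strand) for H2-Eb1.
H2-Aa: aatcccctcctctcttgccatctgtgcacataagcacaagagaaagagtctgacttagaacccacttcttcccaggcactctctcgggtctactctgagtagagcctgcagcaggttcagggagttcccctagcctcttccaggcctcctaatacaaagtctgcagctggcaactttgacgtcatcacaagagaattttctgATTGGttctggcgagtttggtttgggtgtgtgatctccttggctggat
H2-Eb1: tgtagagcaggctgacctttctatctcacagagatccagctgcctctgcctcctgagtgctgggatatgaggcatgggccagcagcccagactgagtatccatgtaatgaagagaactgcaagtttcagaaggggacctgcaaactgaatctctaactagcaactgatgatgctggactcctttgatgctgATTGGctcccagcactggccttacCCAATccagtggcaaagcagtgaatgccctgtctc
The H2-Aa match began 48 bases before the start, and H2-Eb1 had 2 matches. For comparison, the octamer ATGCAAAT, read on both strands as that or ATTTGCAT, was found in 0 of the 12 promoters of 10 B cell genes that could be matched, and in 1.60% of all promoters. A match of letters is a description of the window.

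Receptors that guide lymphocytes into and through lymph nodes were detected at unequal shares. Ccr7, which draws lymphocytes to the T cell zone and its border, was at 645 CPM and in 46.7% of cells at 1000 UMIs, close to the 640 CPM and 41.8% of CD4 T cells. Cxcr5, the follicle receptor, was at 77.2 CPM and in 7.93% of cells at that depth, against 3.904 CPM in CD4 T cells. S1pr1, used to leave the node, was at 205 CPM against 350 in CD4 T cells, and Gpr183, Cxcr4 and Ccr6 were at 107, 199 and 58.4 CPM.

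Signals exchanged with T cells were uneven. Cd83 was at 324 CPM and Cd86 at 239, while Cd40 was at 30.1 and Cd80 had 1 UMI in all. The ligand gene Icosl was at 34.0 CPM, and the inhibitory receptor gene Btla at 58.0. Ltb, a lymphotoxin subunit needed for follicle structure, was at 279 CPM. Innate sensing was carried by Unc93b1 at 194 CPM, Ly86 at 155 and Cd180 at 47.5, with 14 UMIs of Tlr7 and 5 of Tlr9.

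**Figure D3:**
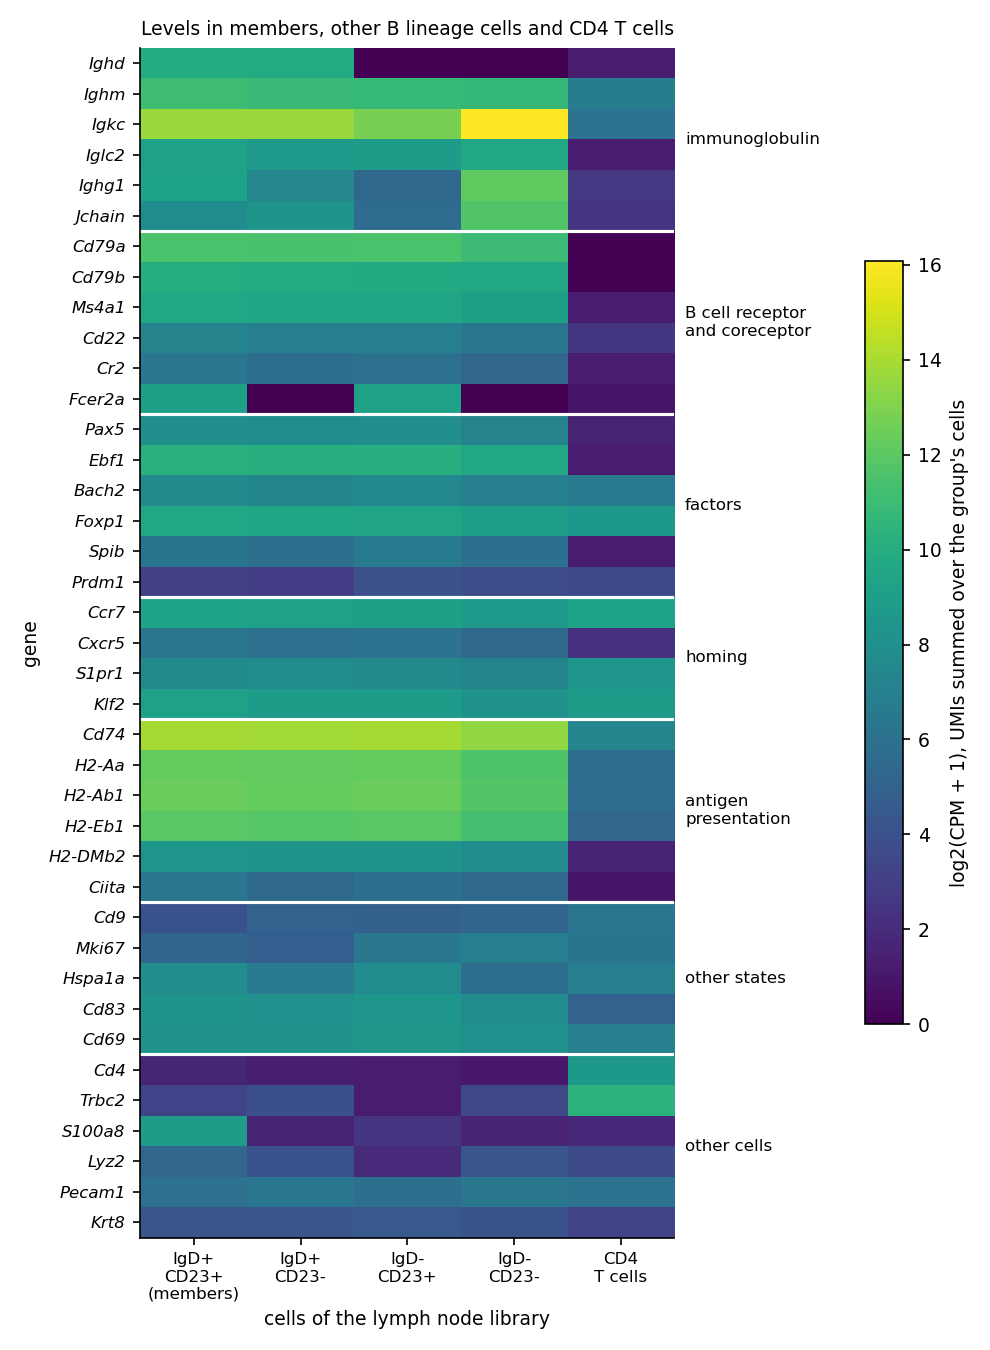
Pooled level, as log2(CPM + 1), of genes (rows, grouped by role) in IgD-positive CD23-positive cells (members), the other B lineage cells and CD4 T cells (columns), all cells included. The class II genes are bright in every B lineage column and darker in CD4 T cells, and Ccr7 is close in the first and last columns. The S100a8 level of the first column comes nearly all from 2 cells.

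Against CD4 T cells, most genes of the B cell groups were higher and those of the T cell group lower. Of 4909 genes with at least 100 UMIs over both groups, 8.68% were at least 2-fold higher and 9.35% at least 2-fold lower. All 11 class II genes were past 2-fold (median log2 ratio 6.53), as were 15 of 17 receptor signalling genes (5.53) and 14 of 18 transcription factors (1.77), with Cd5 at −6.44 and Ikzf1 at −0.60 on the other side, while all genes together had a median of −0.02. Against the floor of 3 counts for genes at 0 in the CD4 T cells, Iglc3 was at least 142-fold higher, Ly86 106-fold, Tnfrsf13c 93.5-fold, Btk 83.4-fold and Pkib 58.4-fold. The 6 T cell genes that passed had a median of −6.22, and the homing list had a median of 0.01 over 17 genes that went both ways, with 4 past 2-fold higher and 5 lower, from Selplg at −2.46 to Cxcr5 at 4.22.

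Against the B lineage cells with neither transcript, fewer genes were past 2-fold at matched depth. Values given for a gene or list in this and the next comparisons are log2 ratios of pooled CPM, first over all cells and then in cells of 1000 to 4000 UMIs. Of 5535 genes 0.813% were at least 2-fold higher and 3.96% at least 2-fold lower in the IgD-positive CD23-positive cells. In cells of 1000 to 4000 UMIs, 4134 genes were left, with 0.218% higher and 0.121% lower. The follicular list had a median log2 ratio of 0.73 over 11 of 12 genes, with Cr2 (1.06) among the genes past 2-fold, and 0.23 at matched depth, where Cr2 was at 0.40. All 11 stayed above 0 in both. The class II list went from 0.64 to 0.10 with 0 of 11 genes past 2-fold, receptor signalling from 0.68 to 0.14, and transcription factors from 0.55 to 0.08, beside medians of all genes of 0.12 and 0.01. Klf2 was at 0.99 and then 0.62, and Btla at 1.28 and then 0.70.

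The 15 lowest ratios included genes of antibody secretion and also the chemokine genes Ccl2 (−5.46), Ccl5 (−4.12) and Cxcl10 (−3.68). At matched depth these 3 fell under the minimum of 100 UMIs, with 8, 38 and 9 UMIs against 6, 41 and 9. Ighg2b was at −4.53 and at −5.82 at matched depth, Jchain at −3.89 and −5.15, and Slpi at −5.15 and −3.91. Without the cells that stood apart in both groups these were at −2.33, −4.11 and −4.47. Igha was at −7.71, Ighg3 at −7.25 and Ighg2c at −3.65 over all cells, and at matched depth they had 8, 3 and 13 UMIs against 5, 9 and 9, under the minimum. The immunoglobulin constant list had a median of −3.00 over 10 genes, with 7 past 2-fold lower, and of 0.18 over the 7 genes left at matched depth, with 2 past 2-fold lower. Cell cycle genes had a median of −1.12 with 8 of 11 past 2-fold, and −0.29 at matched depth, where 3 could be compared and 0 were past 2-fold. The cells with neither transcript included 87 that stood apart (7.88%), which held 39.9% of that group's UMIs. The highest ratios rested on single cells: Ngp and Camp, neutrophil granule genes, had 222 and 168 UMIs, all in the same cell, and 2 cells held nearly all S100a9 and S100a8, of which 1 had 3803 UMIs and so stayed in at matched depth. The near-identical copies Dcpp2 and Dcpp3 were at 2.58 and 2.13, and 1 cell held 42.9% and 42.6% of their UMIs.

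Against the IgD-positive CD23-negative cells, which differ in the choice by CD23 alone, differences were small. Of 6300 genes 0.27% were at least 2-fold higher and 1.68% lower. In cells of 1000 to 4000 UMIs the shares were 0.112% and 0.0187% of 5346. The follicular list had a median of 0.24 with 11 of 11 genes above 0, and 0.19 with 10 of 11 at matched depth, beside medians of all genes of −0.01 and 0.01. Cr2 was at 0.49 (0.21 to 0.76) in both readings, and Ciita at 0.75 (0.46 to 1.04) and then 0.58. Class II genes as a list were at 0.11 and then 0.04, and Ighm at 0.18 and then 0.14. The interferon-induced list was at −1.53 over 13 genes, with 7 past 2-fold lower. It was at 0.09 over the 8 genes left at matched depth, with 0 past 2-fold, so the medians cover different sets of genes.

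Against the IgD-negative CD23-positive cells, which number 305, the follicular and class II lists lay close as well. Of 3793 genes 0.58% were at least 2-fold higher and 0.395% lower. The survival gene Bcl2 was at 0.86 (0.17 to 1.70) and 0.98 at matched depth, and Slamf6, a receptor of lymphocyte contact, at 0.78 and 0.64. The factor Spib was at −0.50 and −0.31, and the early response gene Fos at −0.64 and −0.83. Cd40 was at −0.69 over all cells, where its counts only just passed the minimum, so no value at matched depth is given. The follicular list had a median of 0.21 and the class II list of 0.15. The immunoglobulin constant list was at 0.62 with 3 of 8 genes past 2-fold higher, the plasma cell list at 0.81 with 2 of 5 higher, and the cell cycle list at −0.74 with 2 of 6 lower. At matched depth 5, 1 and 2 genes of these lists had enough UMIs, and 0 were past 2-fold.

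**Figure D4:**
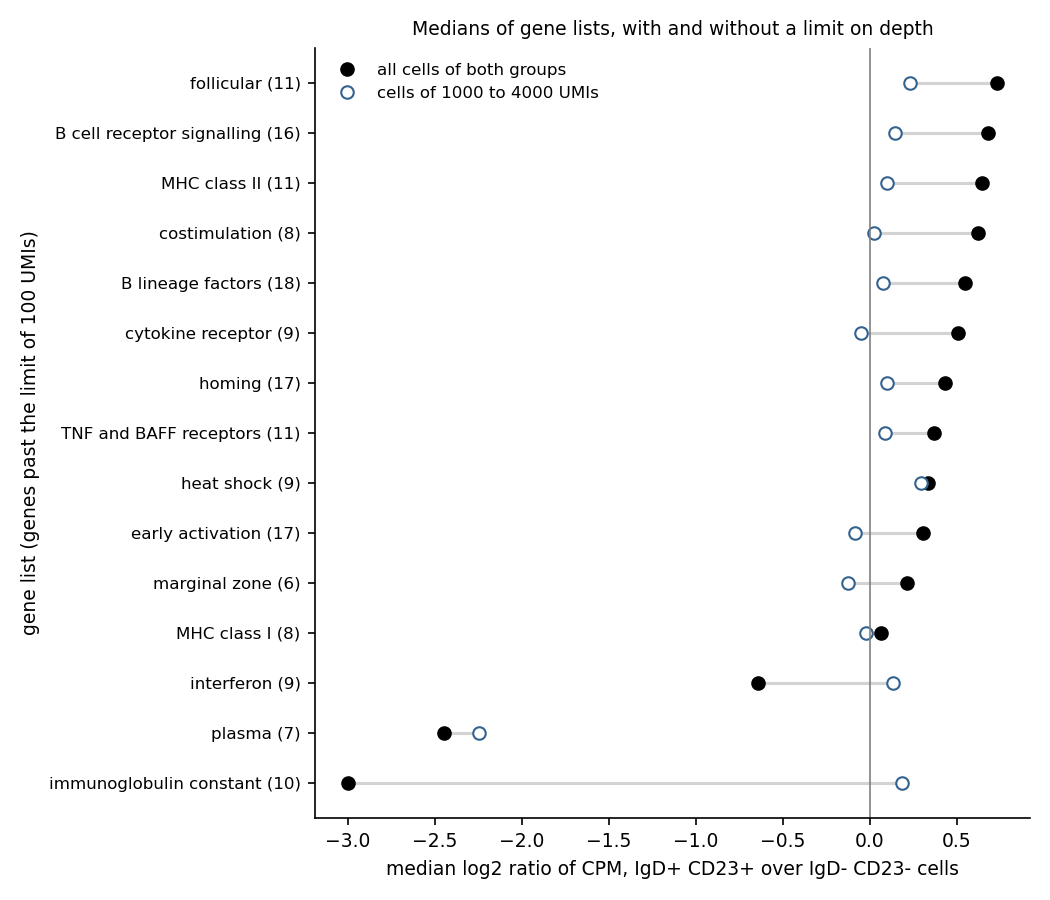
Median log2 ratio of each gene list in IgD-positive CD23-positive cells over B lineage cells with neither transcript, for all cells (filled) and cells of 1000 to 4000 UMIs (open). The follicular list goes from 0.73 to 0.23 and the class II list from 0.64 to 0.10, while heat shock stays at 0.34 and 0.30.

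Among the 931 cells a small group carried a heat shock programme. Hspa1a plus Hspa1b, inducible chaperones whose copies are near-identical so that their split is uncertain, were at 0 in 873 cells, at 1 to 4 UMIs in 25 and at 5 or more in 33 (3.54%, 2.45 to 4.94). Those 33 held 93.9% of the UMIs of both genes. They included 1 of the 11 cells that stood apart, with 11571 UMIs and 13.2% of the group's UMIs. The same limit was passed by 1.59% (1.10 to 2.21) of IgD-positive CD23-negative cells, 1.97% of IgD-negative CD23-positive cells, 1.18% (0.628 to 2.01) of those with neither, 3.37% of CD4 T cells and 3.09% of all kept cells. The other chaperones, which did not enter the split, were higher in the 33: Dnajb1 was at 1325 CPM (1095 to 1589) against 73.9 in the other 898 cells, Hsph1 at 982 against 62.5, Hspe1 at 2319 against 371 and Hsp90aa1 at 4821 against 911. Without the cells that stood apart, Dnajb1 was at 1277 in 32 cells against 76.4 in 888, and Jun at 1672 against 159. Over all 3107 genes with at least 100 UMIs in the 931 cells, 3.73% had a counting interval in the 33 wholly above that in the other cells. The share was 7 of 7 listed chaperones and 8 of the 16 early response genes that passed this minimum, among them Jun at 1519 against 193, Fos at 468 against 113 and Dusp1 at 343 against 78.4. Others overlapped, with Cd69 at 251 against 297 and Egr3 at 34.3 against 66.6. Klf2 was at 2205 against 513. Ms4a1 was close, at 697 against 764, and depth was close, with medians of 1896 and 1974 UMIs. Ccr7 was lower, at 411 against 654, and so was Ighm, at 1439 against 2177.

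Heat shock factor binds repeats of GAA facing TTC, and the letters GAANNTTC read the same on both strands. They were found before 4 of 6 heat shock genes with a RefSeq promoter (Hspa1a, Hspa1b, Hspd1 and Hspe1, but not Dnajb1 or Hsph1). By promoter this was 4 of 9, beside 6.69% of all promoters. The Hspd1 and Hspe1 windows overlap, and their match is the same stretch read on opposite strands. The Hspa1a and Hspa1b windows are printed because these genes define the group. They lie at chr17:34972157-34972406 and chr17:34959239-34959488 of GRCm38.p6, both on the minus strand, with the match in capitals.
Hspa1a: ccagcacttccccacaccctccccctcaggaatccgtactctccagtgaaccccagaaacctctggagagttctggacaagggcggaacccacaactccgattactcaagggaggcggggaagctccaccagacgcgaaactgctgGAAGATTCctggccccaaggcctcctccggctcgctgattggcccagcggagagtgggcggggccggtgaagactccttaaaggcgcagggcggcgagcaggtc
Hspa1b: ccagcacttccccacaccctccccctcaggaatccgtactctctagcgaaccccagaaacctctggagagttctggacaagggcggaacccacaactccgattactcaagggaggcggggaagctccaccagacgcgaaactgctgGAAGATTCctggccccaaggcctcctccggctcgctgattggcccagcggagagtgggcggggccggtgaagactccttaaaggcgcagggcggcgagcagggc
Both matches began 104 bases before the start, and the windows were alike at 247 of 250 positions (98.8%).

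**Figure D5:**
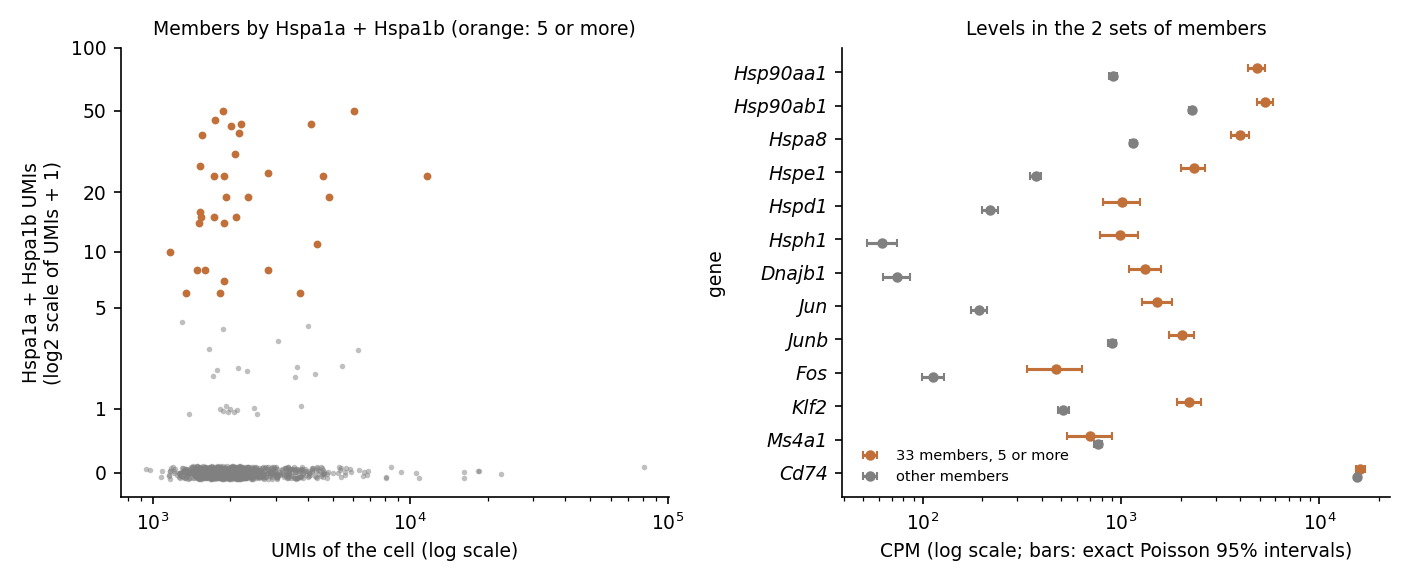
Left, UMIs of Hspa1a plus Hspa1b (log2 scale of UMIs + 1) against all UMIs (log scale) of each IgD-positive CD23-positive cell, with the 33 cells at 5 or more in orange. Right, pooled CPM (log scale) with exact Poisson 95% intervals in the 33 cells (orange) and the other 898 (grey), where the plotted chaperone genes and Jun, Junb and Fos lie apart and the intervals of Ms4a1 overlap.

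Variation between the cells was read at equal depth. The Fano factor, the variance over the mean of counts at 1000 UMIs per cell, is 1 under sampling alone, and over 8377 genes its median was 1.02 in 929 cells. It passed 1.5 for 74 genes, and for a gene with few UMIs it stays near 1 even where cells differ. Much of the largest values for IgG, Igkc and Jchain came from the 11 cells: Ighg2b went from 46.0 to 1.21 without them, Igkc from 23.8 to 3.71 and Jchain from 10.0 to 1.75. The lambda genes Iglc1 and Iglc2 were at 3.61 and 2.19, and at 3.65 and 2.20 without them. Dcpp3 stayed the most uneven of the others at 28.8, from 26 cells with at most 49 UMIs, followed by Dcpp2 at 19.9 and Hspa1a at 10.4. Apoe was at 3.13 and Jun at 3.12. Follicular genes lay nearer 1, with Ms4a1 at 1.21 and Cr2 at 1.07.

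Transcripts listed for other B cell states ranged from absent to common. Cells with at least 3 UMIs over Mki67, Top2a, Birc5, Cdk1, Rrm2 and Ccnb1, genes of dividing cells, numbered 7 (0.752%), against 0.748% of IgD-positive CD23-negative cells, 2.62% of IgD-negative CD23-positive cells and 5.25% of those with neither. These counts were not reduced to equal depth. Over 10000 UMIs were held by 65 of the 1104 cells with neither transcript and by 9 of the 931. At least 3 UMIs over the interferon-induced genes Isg15, Ifit1, Ifit3, Rsad2, Usp18 and Oasl1 were found in 5 cells (0.537%, 0.175 to 1.25), also at unequal depth. The share was 0.748% in IgD-positive CD23-negative cells and 0.328% in IgD-negative CD23-positive cells. It was 1.27% in those with neither and 1.78% in CD4 T cells. Of the genes of immature B cells, Rag1, Rag2, Vpreb1 and Igll1 had 0 UMIs and Cd93 was at 15.7 CPM, while Vpreb3 was found in 229 cells and Cd24a in 226. The list of 10 summed to 299.9 CPM, against 292 in IgD-positive CD23-negative cells and 453 in those with neither. Without the cells that stood apart these sums were 308, 324 and 418. Of the marginal zone list Cd9 and Cd1d1 were at 15.7 and 7.85 CPM, while Plac8 was found in 589 cells, Dtx1 in 153 and Notch2 in 119. That list summed to 959 CPM, against 1072 in IgD-positive CD23-negative cells and 745 in those with neither. Without the cells that stood apart these sums were 1021, 1173 and 1036. Cd5, a marker of B-1 cells, had 5 UMIs. The B-1 list of 10 genes summed to 496 CPM, against 847 in IgD-positive CD23-negative cells and 693 in those with neither. Without the cells that stood apart it was at 298, against 289 and 345. Mki67 was at 37.1 CPM with all cells and 8.66 without the 11.

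The study centred on Alox12, the enzyme that makes 12-HETE, in high endothelial cells. In the IgD-positive CD23-positive B cells Alox12 and the receptor gene Gpr31b had 0 UMIs, as had Alox5, which allows up to 1.31 CPM. These counts limit the transcript in the pooled cells and not in a single cell.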

How the data were processed

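Single-cell RNA sequencing libraries (10x Genomics) were made from primary tumours and paired lymph nodes, and the authors deposited UMI counts, which are whole and not normalized. Per the file headers they were written by Cell Ranger 5.0.0, while the submitters' processing notes name Cell Ranger 2.1.1 and GRCm38. The kit reads 3′ ends, so gene length does not enter a level. The members and gene lists were chosen with earlier results of these data known.

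Counts were read with Python 3.11.15, numpy 2.4.6, scipy 1.17.1 and pandas 2.3.3. Levels are UMIs summed over cells per 1000000, with exact Poisson intervals, and shares have exact Clopper-Pearson intervals, all at 95% and covering counting error only. Shares of cells with a UMI were reduced to 1000 UMIs per cell from the hypergeometric formula, which left out 2 members. Ratios are log2 ratios of pooled CPM with 0.5 count added, for genes with at least 100 UMIs over both groups, and a gene was counted as higher or lower past 2-fold. Genes were named from the lists, from the 15 highest and lowest ratios over cells with neither transcript, the 10 highest over CD4 T cells, and the 15 highest levels and Fano factors. Doublets were scored with Scrublet in scanpy 1.11.5 (rate 6%, 30 components) and were not removed, since its threshold marked none. Promoters came from RefSeq (GRCm38.p6) and gene positions from the GRCm38 annotation. The ratio intervals were tested on simulated pooled counts without differences between cells, and the reduction to 1000 UMIs on random draws. Alternatives changed the cell limits, the added count, the count minimum, the depth, and the cells that stood apart, the last chosen after seeing the data. A few listed genes are not reported here.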

Additional observations from a re-analysis of the deposited data

How the results depend on the processing

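With at most 6000 detected genes the cells were 9.02% of those kept. With at least 2 UMIs of both Ighd and Fcer2a 163 cells remained, 1.45% of kept cells and 3.64% of B lineage cells. With at least 5 UMIs of Cd79a plus Cd79b they were 7.39% of kept cells. With at least 500 UMIs summed, with cells of 1000 to 4000 UMIs, and without the cells that stood apart, in that order, the genes at least 2-fold higher than in cells with neither transcript went from 45 to 9, 9 and 7, and those lower from 219 to 66, 5 and 25, of 5535 genes compared and then 1605, 4134 and 4557. Against IgD-positive CD23-negative cells they went from 17 to 4, 6 and 5 higher, and from 106 to 16, 1 and 1 lower, of 6300 and then 2105, 5346 and 5672. Against IgD-negative CD23-positive cells they went from 22 to 8, 10 and 9 higher, and from 15 to 0, 0 and 0 lower, of 3793 and then 771, 3075 and 3433. Against CD4 T cells only the 500 UMI minimum moved them by over 1.5 times, from 426 to 105 higher and from 459 to 107 lower of 4909 and then 1217. Genes with a Fano factor over 1.5 went from 74 to 37 at 500 UMIs per cell and to 57 without the cells that stood apart, where the limit of 10 cells with a UMI was applied anew. The ratio of Iglc1 over cells with neither transcript turned from −3.19 to 0.18 in cells of 1000 to 4000 UMIs, and the cause was not tested. Of 24 gene levels, 16 moved by more than their interval without the cells that stood apart, 19 with at least 2 UMIs of both Ighd and Fcer2a, 18 with the mean of single-cell CPM and 12 with at least 5 UMIs of Cd79a plus Cd79b. At 2 UMIs of both, Ciita went from 78.5 to 136 CPM, Igkc from 12988 to 19641 and Ighg1 from 653 to 2398. No paired analysis was possible because each tissue has 1 library. One pool of lymph nodes gives no spread between animals, and a median depth of 1968 UMIs leaves many Fcer2a transcripts unread.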
